A study of Mus musculus with 6 samples.

Results

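Gfi1b, its paralogue Gfi1 and the genes of the LSD1-CoREST complex were followed in mouse erythroid cells depleted of Mi2β. The set was chosen by gene name and holds 8 genes: Gfi1, Gfi1b, Kdm1a, Rcor1, Rcor2, Rcor3, Hmg20b and Phf21a. All 8 were on the array, with 11 of its 55681 non-control probes. Rcor1 had 2 probes, Phf21a had 3 and the other 6 genes had 1 each. Of these genes 7 were among the 22133 genes tested, and Gfi1 was not, because no array showed its signal well above background.

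The study used G1E-ER-GATA-1, a mouse erythroid progenitor line that lacks its own GATA-1 and carries GATA-1 fused to the oestrogen receptor's ligand-binding domain. Samples of one group (3) were nucleofected with an siRNA against Mi2β and those of the other (3) with a non-targeting control siRNA, at 0 h and once more at 24 h. Both groups then had β-estradiol, which activates the fusion protein, from 24 h to the harvest at 48 h, and both grew in medium with erythropoietin and Kit ligand. All samples come from this 1 cell line and carry the same lack of GATA-1 and the same fusion. All had β-estradiol from 24 h on, so no sample shows the cells before induction. Separate cultures are not stated for the samples within a group, so the p-values cover the spread between these samples alone, and part of it may be technical.

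Gfi1 and Gfi1b are zinc finger repressors of blood cells that begin with a short SNAG domain. Through this domain they bind LSD1, the histone demethylase that Kdm1a encodes, which works in a complex with a CoREST scaffold protein and the histone deacetylases HDAC1 and HDAC2. Gfi1b is needed for red cells and platelets to form, is known to repress its own gene together with GATA-1, and recruits LSD1 and CoREST to many of its targets. Mi2β, the product of Chd4, drives NuRD, a separate chromatin complex that also holds HDAC1 and HDAC2.

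RNA was labelled with Cy3 and hybridised to 6 one-colour Agilent arrays on 1 slide, 1 sample per array. Signals are the scanner's background-subtracted intensities, and levels are log2 of the signal minus the log2 of the array's 75th percentile. Changes are Mi2β siRNA minus control siRNA on that log2 scale, tested with limma over all genes, and "rose" and "fell" are kept for an adjusted p under 0.05. The share of probes well above background was 48.5% to 74.0% on the Mi2β siRNA arrays and 53.1% to 56.5% on the control arrays. The precision is limited by the 3 arrays per group. The siRNA target Chd4 was at 4.59 ± 0.04 in Mi2β siRNA samples and at 5.89 ± 0.13 in control samples (SD, n = 3 each), a change of -1.31 (SE 0.10, adjusted p = 0.00161). All 8 erythroid markers examined were measured in both groups, while the mast cell markers Fcer1a and Ms4a2, the platelet gene Ppbp and the myeloid gene Lyz2 were well above background on no array. The summed level of the erythroid markers, in multiples of the array's 75th percentile, was 2030 to 2240 in Mi2β siRNA samples and 1560 to 1690 in control samples. That of 5 megakaryocyte markers was 9.48 to 12.8 in Mi2β siRNA samples and 30.6 to 36.4 in control samples. Such sums follow their brightest probes, and single members differed: Pf4 changed by -1.62 and Gp9 by -2.18, Gp1bb by -0.21 (adjusted p = 0.793) and Itga2b by 1.51 (adjusted p = 0.0508). The summed level of 4 mast cell markers was 0.991 to 1.01 in Mi2β siRNA samples and 0.243 to 0.257 in control samples. This sum mostly followed 1 gene, Mcpt4, which rose by 2.70 (adjusted p = 0.00016 by limma). Cpa3 changed by 0.61 and did not pass (adjusted p = 0.0594), and Fcer1a and Ms4a2 were not detected. The summed level of 5 myeloid markers was 21.0 to 22.3 in Mi2β siRNA samples and 16.8 to 21.6 in control samples. For 3 lymphoid markers it was 2.60 to 4.01 in Mi2β siRNA samples and 3.00 to 3.35 in control samples. In both lists the ranges overlapped. Single myeloid members differed: Cd68 rose by 0.53 (adjusted p = 0.0305 by limma), while Csf1r (-0.33, 0.0744) and Itgam (0.14, 0.607) did not pass. Mpo and Lyz2 were not tested. The part of these marker shifts in the results below was not tested, and in RNA of whole cultures fewer cells of a type and less RNA per cell cannot be told apart.

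Rcor2 rose, Gfi1b fell by a small amount near the threshold, and Kdm1a, Rcor1, Rcor3, Hmg20b and Phf21a did not pass. Of the 7 genes tested, 2 were called (28.6%), against 9.56% of all genes, with 4.99% called as risen and 4.56% as fallen. By unadjusted p under 0.05, 1 of the 7 was higher and 2 were lower, where 10.5% of all genes were higher and 13.4% lower. The median change of the 7 was -0.13, against -0.03 for all genes. In 5 of the 7 the groups did not overlap, a pattern that 31.1% of all genes showed. With 7 genes these shares describe the genes one by one and give no result for the complex as a whole.

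**Figure D1:**
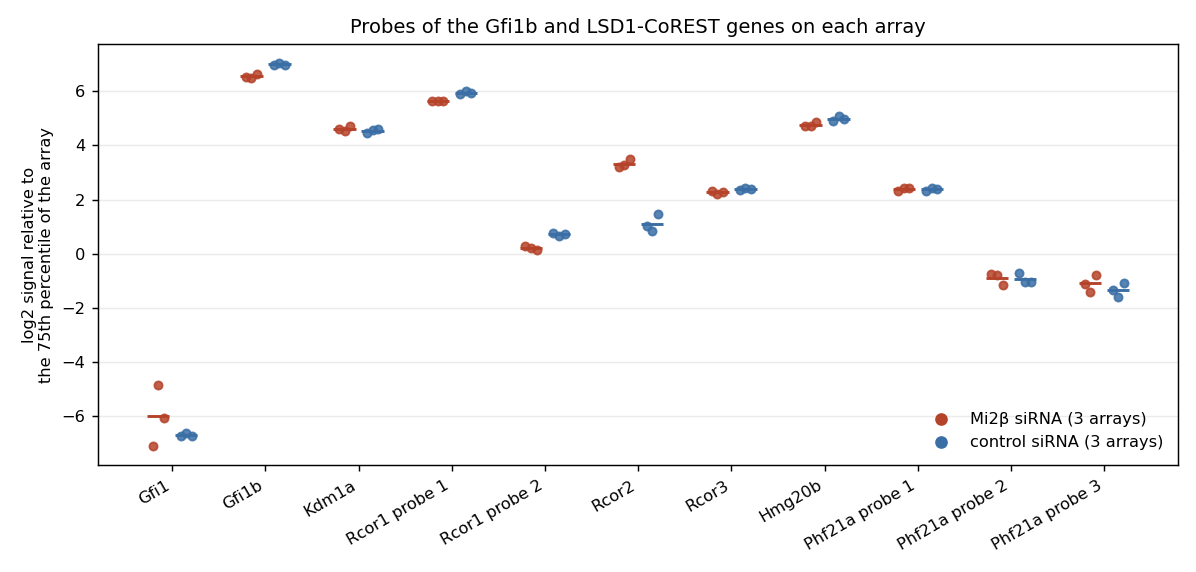
Level of each of the 11 probes on every array, as log2 signal relative to the array's 75th percentile, with 3 Mi2β siRNA arrays to the left of 3 control siRNA arrays and a bar at each mean. Rcor2 is the one gene whose knockdown points lie far above its control points (3.33 against 1.11 on average). Levels of different probes are not comparable.

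**Figure D2:**
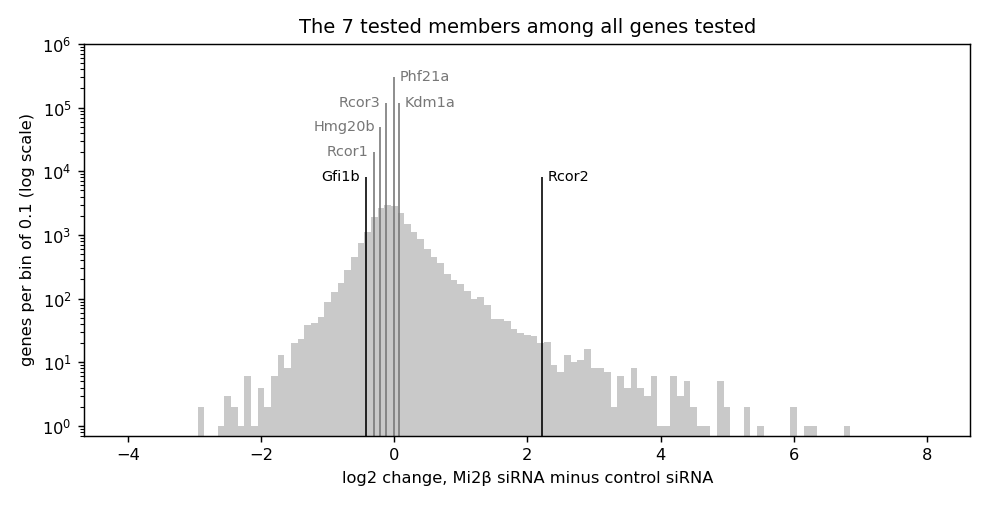
Changes of the 7 genes tested (vertical lines) over the histogram of the changes of all 22133 genes, in bins of 0.1 on the log2 scale and with a logarithmic count axis. Black lines mark the 2 genes past the threshold. Rcor2 lies in the right tail and the other 6 lie in the centre of the distribution.

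Among the repressors, Gfi1b gave a strong signal in both groups. Its signal was 41000, 35600 and 40800 on the Mi2β siRNA arrays and 46400, 47400 and 49100 on the control arrays. All knockdown arrays lay below all control arrays, and no spot was saturated. On the log2 scale it was at 6.56 ± 0.08 in Mi2β siRNA samples and 6.99 ± 0.04 in control samples (SD, n = 3 each). The change was -0.43 (SE 0.09, 95% interval -0.66 to -0.21), or 0.741 times the control level, with an adjusted p = 0.0402 by limma. In the fit over all probes its adjusted p was 0.0496. By size, 76.2% of all genes tested had a smaller change in either direction.

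The call on Gfi1b rested on each array. It was lost with any of the 6 arrays left out: without control replicate 1 (-0.44, adjusted p = 0.118), 2 (-0.41, 0.109) or 3 (-0.45, 0.0797), and without knockdown replicate 1 (-0.42, 0.173), 2 (-0.40, 0.120) or 3 (-0.48, 0.0678). The arrays sat in 2 rows of the slide, with replicates 1 and 2 of both groups in row 1. A fit with the row as a block gave -0.43 (adjusted p = 0.0699) and row 1 by itself gave -0.49 (adjusted p = 0.119). Row 2, with 1 array of each group, gave no test. The change of Gfi1b stayed below 0 in all 19 alternatives, from -0.66 to -0.35, and passed in 7 of them. Among the 7 were the deposited value table (-0.43, adjusted p = 0.0402) and the mean over probes (-0.43, 0.0414). The table repeats the same intensities and the mean leaves a gene with 1 probe unchanged, so neither was a separate check. Scaled by array medians, where the median of all genes was itself -0.27, Gfi1b was at -0.66 (adjusted p = 0.500).

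Gfi1, the paralogue that prevails in granulocyte and lymphoid precursors, was at the floor. Its signal was 3.24, 13.7 and 6.00 on the Mi2β siRNA arrays and 3.44, 3.67 and 3.73 on the control arrays. It was well above background on 0 of 3 arrays in each group, so no fold is given, and the set holds no measured change of Gfi1 to put beside that of Gfi1b.

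The promoters of Gfi1b and Rcor2, the genes that passed the test, and of Rcor1, the scaffold gene beside Rcor2, are shown to be read side by side. They are RefSeq sequences of GRCm38.p6, each covering 250 bases before to 50 bases after an annotated start, given 5′ to 3′ on the gene's strand. Gfi1b lies at chr2:28621933-28622232 on the minus strand, Rcor2 at chr19:7267144-7267443 on the plus strand and Rcor1 at chr12:111039117-111039416 on the plus strand. Capitals mark AATC, the core letters bound by Gfi1 and Gfi1b, and GATAA, the core bound by GATA factors, each on either strand (GATT and TTATC as written on the other).
Gfi1b: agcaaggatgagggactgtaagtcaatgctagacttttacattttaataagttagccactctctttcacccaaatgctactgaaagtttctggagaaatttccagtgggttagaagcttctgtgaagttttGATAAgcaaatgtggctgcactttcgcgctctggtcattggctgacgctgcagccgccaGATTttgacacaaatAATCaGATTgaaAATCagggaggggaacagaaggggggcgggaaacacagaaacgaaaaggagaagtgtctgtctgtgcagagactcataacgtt
Rcor2: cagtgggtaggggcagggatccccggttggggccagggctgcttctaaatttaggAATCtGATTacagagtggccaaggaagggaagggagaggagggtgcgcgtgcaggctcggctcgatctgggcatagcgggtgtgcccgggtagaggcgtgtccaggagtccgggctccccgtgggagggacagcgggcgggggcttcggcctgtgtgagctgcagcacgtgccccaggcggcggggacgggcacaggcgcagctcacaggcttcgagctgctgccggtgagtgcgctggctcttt
Rcor1: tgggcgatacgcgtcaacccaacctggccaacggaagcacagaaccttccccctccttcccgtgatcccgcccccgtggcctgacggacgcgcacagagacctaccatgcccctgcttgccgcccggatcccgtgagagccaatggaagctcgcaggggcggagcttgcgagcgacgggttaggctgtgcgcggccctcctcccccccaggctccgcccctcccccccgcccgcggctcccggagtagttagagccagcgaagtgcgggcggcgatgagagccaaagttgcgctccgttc
The Gfi1b window held 4 matches to AATC and 1 to GATAA. The Rcor2 window held 2 matches to AATC and 0 to GATAA, and the Rcor1 window held 0 of either. Over all 32851 RefSeq promoter windows of this length, 73.1% held AATC and 25.4% held GATAA, so a match to so short a motif is common. No match to one of these motifs is also a match to the other. CG dinucleotides numbered 7 in the Gfi1b window, 21 in that of Rcor2 and 31 in that of Rcor1, against a median of 7 over all windows. The 8 genes together had 12 windows, of which 9 held AATC and 1, that of Gfi1b, held GATAA. These matches describe the letters only, and no binding was measured.

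Of the CoREST scaffold genes Rcor2 rose, and Rcor1 and Rcor3 did not pass in the fit over genes. Rcor1 encodes CoREST itself, the scaffold that holds LSD1 on nucleosomes and joins it to the deacetylases, while Rcor2 and Rcor3 encode its paralogues. Rcor2 is known as the form used with LSD1 in mouse embryonic stem cells and neural progenitors, and Rcor3 has been described in mouse erythroid cells as an antagonist of Rcor1 function.

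Rcor2 signal was 4080, 3820 and 4610 on the Mi2β siRNA arrays and 758, 638 and 1090 on the control arrays. The lowest knockdown array lay well above the highest control array. On the log2 scale it was at 3.33 ± 0.16 in Mi2β siRNA samples and 1.11 ± 0.33 in control samples (SD, n = 3 each). It rose by 2.22 (SE 0.19, 95% interval 1.75 to 2.69), which is 4.65-fold higher, with an adjusted p = 0.00204 by limma. It was well above background on all 3 arrays of each group. The rise passed in all 19 alternatives, with values from 1.98 to 2.40 and adjusted p from 1.23e-05 to 0.0162. Of these, the deposited value table and the mean over its 1 probe keep the main values. Within slide row 1 the rise was 2.31 (adjusted p = 0.0162) and with the row as a block it was 2.22 (0.00191). By size it ranked 171 among the 1105 genes that rose, so many transcripts rose further, and 0.836% of all genes tested had a change as high or higher. Its single probe lies at chr19:7349635-7349694 on the plus strand in mm9, the build the file headers give.

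Rcor1 was measured by 2 probes. The brighter one, at chr12:112351412-112351471 on the plus strand, had signals of 22300, 19600 and 20400 on the Mi2β siRNA arrays and 22200, 23100 and 24000 on the control arrays. After scaling, all knockdown arrays lay below all control arrays, at 5.65 ± 0.01 in Mi2β siRNA samples and 5.95 ± 0.05 in control samples (SD, n = 3 each). Its change of -0.30 (SE 0.08, 95% interval -0.51 to -0.09) did not pass (adjusted p = 0.0873), though it did when the gene was taken as the mean of both probes (-0.41, 0.0363), with an intensity trend (0.0355) and with array weights (0.0317). The second probe is printed because it is spread over the genome: its 60 bases cover 929 bases at chr12:112347115-112348043 on the plus strand in mm9.
Rcor1 probe: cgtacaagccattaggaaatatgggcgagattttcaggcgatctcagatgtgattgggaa
This probe gave signals of 548, 458 and 442 on the Mi2β siRNA arrays and 635, 574 and 656 on the control arrays. The groups again did not overlap, with 0.21 ± 0.09 in Mi2β siRNA samples and 0.73 ± 0.05 in control samples on the log2 scale (SD, n = 3 each). It fell in the fit over all probes (-0.52, SE 0.10, adjusted p = 0.0314), a call lost with any of the 6 arrays left out (adjusted p from 0.0778 to 0.117). Within row 1 it was -0.47 (adjusted p = 0.160), and with the row as a block -0.52 (0.0566). The changes of the 2 probes differed by -0.22 (SE 0.11, 95% interval -0.49 to 0.06), which did not pass (adjusted p = 0.659); of 15930 such probe comparisons on the array, 0.301% passed.

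Rcor3 signal was 2240, 1810 and 1970 on the Mi2β siRNA arrays and 1910, 1920 and 2080 on the control arrays. After scaling the knockdown arrays lay narrowly below the control arrays, at 2.27 ± 0.07 in Mi2β siRNA samples and 2.40 ± 0.03 in control samples (SD, n = 3 each). The change was -0.13 (SE 0.09, 95% interval -0.34 to 0.09, adjusted p = 0.458).

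The changes of the 3 scaffolds were also set against each other within each array. The change of Rcor2 exceeded that of Rcor1 by 2.52 (SD 0.28 within groups) and that of Rcor3 by 2.34 (SD 0.27), and the change of Rcor3 exceeded that of Rcor1 by 0.17 (SD 0.05). In each of these pairs the Mi2β siRNA arrays did not overlap the control arrays. The exact two-sided permutation test gave p = 0.1 for all 3, the smallest that 3 against 3 arrays allow, and 0.167 after Benjamini-Hochberg adjustment over the 5 pairs of related genes measured.

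**Figure D3:**
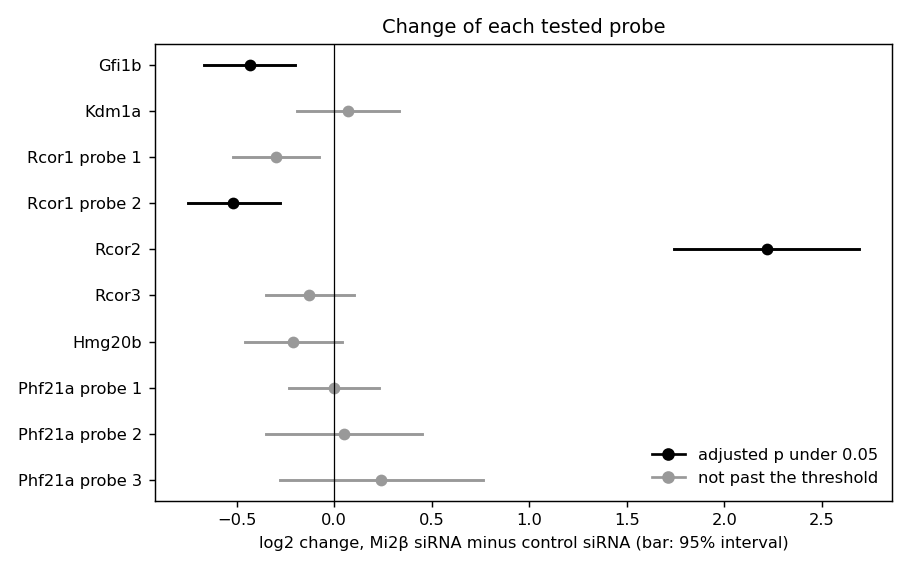
Change of each of the 10 tested probes, Mi2β siRNA minus control siRNA on the log2 scale, with its 95% interval from limma. Black points are past the threshold in the fit over all probes. The Rcor2 interval (1.74 to 2.69) lies to the right of 0, and those of Gfi1b and both Rcor1 probes lie to the left.

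The enzyme and the accessory subunits did not pass. Kdm1a, which encodes LSD1, the demethylase of the complex, had signals of 10800, 9030 and 10700 on the Mi2β siRNA arrays and 8080, 8530 and 9650 on the control arrays. The scaled values overlapped, at 4.61 ± 0.10 in Mi2β siRNA samples and 4.54 ± 0.09 in control samples (SD, n = 3 each). The change was 0.07 (SE 0.10, 95% interval -0.18 to 0.32, adjusted p = 0.744), with its sign turned under array median scaling (-0.16). Hmg20b encodes BRAF35, a DNA-binding HMG box subunit. Its signal was 11600, 10500 and 11800 on the Mi2β siRNA arrays and 11200, 12100 and 12300 on the control arrays. After scaling, the knockdown arrays lay below the control arrays by a small margin. Its change was -0.21 (SE 0.10, 95% interval -0.45 to 0.03, adjusted p = 0.260). Phf21a encodes BHC80, the subunit that reads the unmethylated histone H3 tail. Its brightest probe gave 2200, 2110 and 2150 on the Mi2β siRNA arrays and 1840, 1940 and 2070 on the control arrays, which after scaling overlapped (change 0.00, SE 0.09, 95% interval -0.22 to 0.22, adjusted p = 0.988). The other 2 Phf21a probes were dimmer, between 149 and 265 on the Mi2β siRNA arrays and between 119 and 223 on the control arrays. Their changes were 0.05 (SE 0.16, adjusted p = 0.898) and 0.24 (SE 0.21, adjusted p = 0.580), and no Phf21a probe passed against the others of its gene (adjusted p from 0.849 to 0.954).

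In the fit over all probes, 10 of the 11 probes were tested. Of these 1 rose (that of Rcor2) and 2 fell (Gfi1b and the second of Rcor1). Of all 31853 probes 8.19% were called, 4.31% as risen and 3.88% as fallen, and in 29.9% the groups did not overlap, as was so for 6 of the 10. The probes lie, in mm9, at chr5:108145719-108145778 (Gfi1, minus strand), chr2:28464982-28465041 (Gfi1b, minus), chr4:136106506-136106565 (Kdm1a, minus), chr1:193924635-193924694 (Rcor3, minus) and chr10:80808801-80808860 (Hmg20b, minus). Those of Phf21a lie on the plus strand at chr2:92200991-92201050, chr2:92170905-92170964 and chr2:92204689-92204748.

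The other subunits reported in LSD1 and CoREST complexes gave 1 call. The list held 11 genes, all measured, with the LSD1 paralogue Kdm1b counted among them. By limma 0 rose and 1 fell, and by unadjusted p under 0.05 0 were higher and 3 lower, where 10.5% and 13.4% of all genes were. The adjusted count is 9.09% called against 9.56% of all genes, with a median of -0.13. The fall was that of Gse1, a coiled-coil protein found with LSD1, whose signal was between 102 and 141 on the Mi2β siRNA arrays and between 154 and 166 on the control arrays. The knockdown arrays lay below the control arrays, with a change of -0.61 (SE 0.12, adjusted p = 0.0331). That call was lost with any of the 6 arrays left out (adjusted p from 0.0578 to 0.118) and within slide row 1 (0.119). It was also lost with array median scaling (-0.84, adjusted p = 0.289), no detection filter (0.11) and the replicate number as a block (0.0924). The deacetylase genes Hdac1 (0.10, SE 0.11) and Hdac2 (-0.04, SE 0.17), shared with NuRD, did not pass. Nor did the corepressor genes Ctbp1 (0.00, SE 0.17) and Ctbp2 (0.20, SE 0.14), or the zinc finger subunit genes Zmym2 (-0.30, SE 0.11), Zmym3 (-0.13, SE 0.11), Zfp217 (-0.18, SE 0.09) and Rreb1 (-0.35, SE 0.14).

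The closest relative of the enzyme was set beside it. Kdm1b, the LSD1 paralogue, changed by -0.10 (SE 0.15, adjusted p = 0.723), and the change of Kdm1a exceeded it by 0.17 (SD 0.20 within groups, exact permutation p = 0.5). That difference did not pass, and 3 arrays a group could not have given an exact p under 0.1.

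Other transcription factors with a SNAG domain, which can also recruit LSD1, were dim or not detected. Of 8 such genes, 4 were tested and 0 passed by limma (0 at an unadjusted p under 0.05, which 10.5% of all genes passed as higher and 13.4% as lower). Snai1 was well above background on no array. Snai2, Snai3 and Ovol1 were so on 1 Mi2β siRNA array and on 0 control arrays. Insm1 (1.10, SE 0.77), Insm2 (-0.34, SE 0.29) and Scrt1 (0.33, SE 1.14) had wide errors, and Scrt2, detected on all arrays, changed by 0.07 (SE 0.15). With 9.56% of all genes called, 0 calls among 4 genes is no result about the list.

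Genes reported as bound or repressed by Gfi1, Gfi1b or LSD1 in blood cells moved in both directions. Of 24 listed genes 20 were tested, of which 5 rose and 2 fell (35.0% called, against 9.56% of all genes), with a median of 0.02. The list was chosen with earlier results of these data known, so this share is a description only and no result about the list. Gata2, the GATA factor of early progenitors and a known target of GATA-1 repression, had signals of 2610, 2020 and 2110 on the Mi2β siRNA arrays and 922, 790 and 887 on the control arrays. The groups lay far apart, and the rise was 1.22 (SE 0.10, adjusted p = 0.00199). Scaled by array medians it was 0.99 and did not pass (adjusted p = 0.145). Socs1, an inhibitor of cytokine signalling, gave 542, 582 and 603 on the Mi2β siRNA arrays and 273, 264 and 320 on the control arrays. The rise was 0.87 (SE 0.12, adjusted p = 0.00934). That call was lost under array medians (0.63, adjusted p = 0.540), in slide row 1 (0.87, 0.0722) and with the replicate number as a block (0.87, 0.0552). The other rises, named after their values were seen, were Gata3 (0.75, SE 0.13), the apoptosis gene Bax (0.60, SE 0.10) and the cell cycle inhibitor gene Cdkn1a (0.59, SE 0.10). Each of these 3 lost its call in 8 to 10 of 19 alternatives. Single arrays that ended them were control replicate 1 or any knockdown array for Bax (adjusted p from 0.0527 to 0.0917), control replicate 2 or any knockdown array for Gata3 (0.0586 to 0.0958), and any array except knockdown replicate 2 for Cdkn1a (0.0580 to 0.0961). Scaled by array medians, Bax was at 0.37 and Cdkn1a at 0.35. Cdkn1a had 3 probes, whose mean gave 0.22 (adjusted p = 0.222).

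The falls in that list were larger than its rises. Egr1, an immediate early transcription factor, gave 423, 346 and 399 on the Mi2β siRNA arrays and 2490, 2530 and 2930 on the control arrays, a change of -2.92 (SE 0.10, adjusted p = 0.000134). Bcl2l1, the gene of the survival protein Bcl-xL, known as a gene that GATA-1 activates in red cell precursors and that Gfi1b represses, gave 9380, 8360 and 11700 on the Mi2β siRNA arrays and 32400, 29100 and 26600 on the control arrays. The log2 change was -1.73 (SE 0.17, adjusted p = 0.00338). Neither overlapped between the groups, and both passed in all 19 alternatives. Other listed genes did not pass, among them Meis1 (-0.33, SE 0.11), Myc (0.51, SE 0.14), Socs3 (-0.64, SE 0.16) and Spi1 (0.67, SE 0.19). The list was drawn up from general knowledge of Gfi1b and LSD1 with earlier results of these data known.

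**Figure D4:**
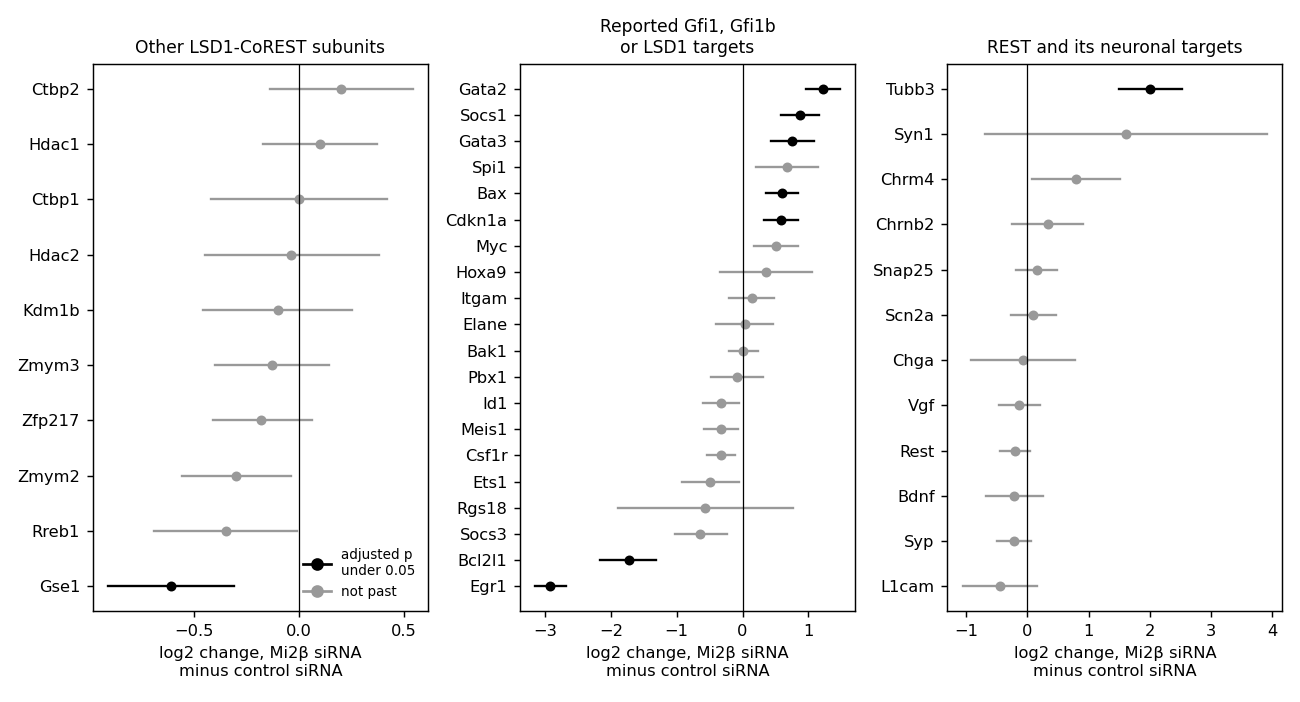
Changes of the tested genes in 3 lists, Mi2β siRNA minus control siRNA on the log2 scale, with 95% intervals from limma and black for genes past the threshold. Of the complex list, 10 of 11 genes are drawn, the LSD1 paralogue Kdm1b among them. Apart from Gse1 (-0.61) they lie between -0.35 and 0.20, with the intervals of Rreb1 and Zmym2 also below 0. The reported targets spread to both sides, and Tubb3 (2.01) stands out among the genes of REST. The 3 panels have different horizontal scales.

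CoREST was first known as the corepressor of REST, which silences neuronal genes in other tissues, so REST and its known neuronal targets were read as well. Of 17 listed genes 12 were tested, of which limma called 1 as risen and 0 as fallen (2 and 0 by unadjusted p under 0.05, against 10.5% and 13.4% of all genes), with a median of 0.01. That is 8.33% called, near the 9.56% of all genes. Tubb3, a neuronal tubulin gene, gave 549, 577 and 733 on the Mi2β siRNA arrays and 157, 148 and 113 on the control arrays. It rose by 2.01 (SE 0.21, adjusted p = 0.00422), in all 19 alternatives. Rest itself changed by -0.21 (SE 0.10, adjusted p = 0.285), and genes such as Snap25 (0.16, SE 0.14) and Syp (-0.22, SE 0.12) did not pass, while Stmn2, Syt4 and Gria2 were well above background on no array.

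The genes on either side of Rcor2 were set beside it, taking 3 protein-coding genes each way in the gene order of GRCm38.p6 on chromosome 19. Of these 6 genes 1 rose, the outermost on one side, and none of the others was called. Over all genes 9.56% were called, 4.99% as risen, so 1 call among 6 genes gives no result for the region. Next to Rcor2, Naa40 changed by -0.18 (SE 0.17, adjusted p = 0.606) and Mark2 by -0.10 (SE 0.12, 0.682). Cox8a (0.06), Otub1 (-0.03) and Spindoc (-0.05) lay close to the median of all genes. The third gene beyond Rcor2, 2700081O15Rik, had signals of 138, 129 and 110 on the Mi2β siRNA arrays and 48.0, 45.2 and 42.8 on the control arrays. It rose by 1.32 (SE 0.12, adjusted p = 0.00266), a call lost with array median scaling (1.09, adjusted p = 0.0821), and with normexp background correction the rise was 0.66 (0.00154).

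**Figure D5:**
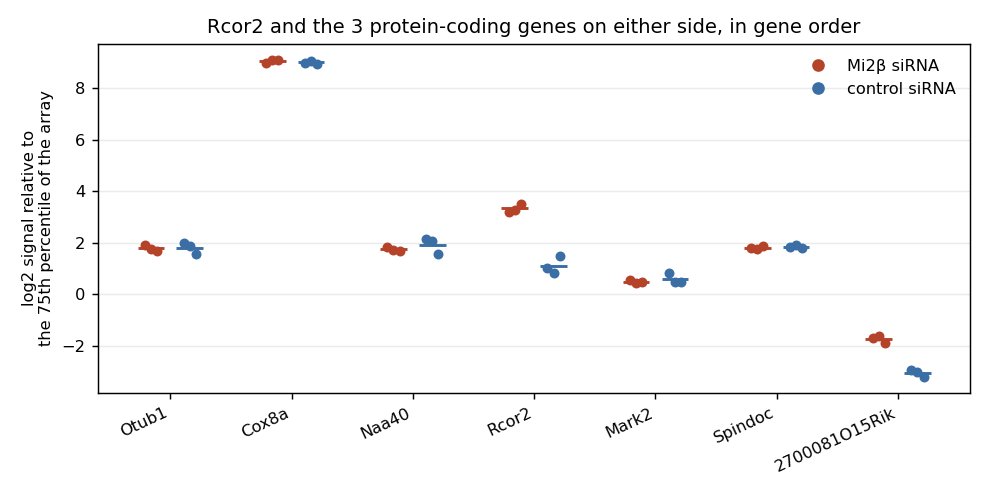
Level of Rcor2 and of the 3 protein-coding genes on either side of it, in gene order, on each Mi2β siRNA array (left of each pair) and control siRNA array, as log2 signal relative to the array's 75th percentile. The groups stand apart for Rcor2 and for 2700081O15Rik, and overlap for Otub1, Naa40 and Mark2, among others.

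Genes with values like those of Gfi1b were sought among the 14269 genes tested that have a RefSeq symbol. Over the 6 arrays, with each gene centred on its mean, the closest were Nadk2, Capn10, Dclre1a, Dmac2l and Zfp703. Their root-mean-square difference from Gfi1b was 0.0233 to 0.0314 on the log2 scale, and their changes were -0.46 to -0.41. With 6 arrays and a small group difference this likeness is a description only.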

How the data were processed

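Spot intensity on a linear scale was deposited in scanner files. Per the file headers, the software was Agilent Feature Extraction 10.7.3.1, which had subtracted the background. A value table deposited by the authors repeats this intensity, with 100% of values within 0.005 of the scanner's, or within rounding. The medians of its columns were 25.9, 36.9 and 17.8 for knockdown replicates 1 to 3 and 21.2, 17.0 and 20.9 for control replicates 1 to 3, so its scale is linear and uncentred. The submitters' processing notes name Feature Extraction and limma, with settings not given in the sources used here.

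Control spots and outlier flags were left out, spots of a probe were averaged, and log2 values were set against the array's 75th percentile over non-control spots. A probe was kept if it was well above background on 3 or more of the 6 arrays, and the brightest stands for its gene. Design names were updated through accessions in the RefSeq table of GRCm38.p6 (27491 of 27985 matched). Probe coordinates are in mm9, as in the files. No genome of that build was used, so the exon under a probe is not given.

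Groups were compared with limma 3.58.1 in R 4.3.3 (lmFit, eBayes, two-sided, Benjamini-Hochberg over all genes or probes). The fit was tested on simulated data. Planned for naming were the 8 genes, Chd4, called list genes (at most 4 a list by size), the complex and SNAG lists, and the 5 genes most like Gfi1b. Further list genes, called and not called, are named beyond that plan. A gene of the complex list is not reported here, and counts include it. The genes and lists were chosen with earlier results of these data known. Deviations of same-numbered replicates from their group means had correlations of 0.21, -0.32 and 0.13 for replicates 1 to 3. Those of differently numbered replicates ran from -0.41 to 0.32. With 3 arrays a group this cannot show whether same-numbered samples were made together. No pairing is stated, so the main fit used none, and the replicate number as a block was an alternative. Alternatives were another background correction, 3 other scalings, filters, probe summaries, blocks, spreads, the value table and each array left out.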

Additional observations from a re-analysis of the deposited data

How the results depend on the processing

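The rise of Rcor2 and the fall of Chd4 kept their call in all 19 alternatives. Beside Rcor2, Gfi1b was called in 7 of them. The value table repeats the main intensities, and the mean over probes leaves a gene with 1 probe unchanged. For such genes neither is a separate check. The number of the 7 genes called was 2, and 1 with array median scaling, no detection filter, the replicate block, the row block, row 1 alone, the percentile taken over averaged probes (added after the data were seen) or any array left out (1 to 1). It was 3 with the mean over probes, the intensity trend and array weights. The number of the 10 probes called was 3, and 1 under the same alternatives except the percentile over averaged probes, with 1 to 1 for arrays left out. It was 2 with that percentile and with quantile normalization, and 4 with the intensity trend and array weights. Over all genes 2115 were called, against 831 with array median scaling (median of all genes -0.27), 993 with no detection filter, 685 with the replicate block, 720 in row 1 alone, 3306 with an intensity trend, 4729 with array weights and 813 to 1579 with an array left out. The row block gave 1801. Under the replicate block Gfi1b was at -0.43 (adjusted p = 0.170) and Rcor2 at 2.22 (adjusted p = 0.0140). The differences between the scaffolds had the same means. Their SDs over the 3 numbered pairs were 0.27 (Rcor2 and Rcor1), 0.28 (Rcor2 and Rcor3) and 0.04 (Rcor3 and Rcor1). The signal limits Gfi1, Snai1, Snai2, Snai3 and Ovol1, which had no measurable level to compare.

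No sign that turned belonged to a called gene. Under array median scaling these were Kdm1a (-0.16), Hdac1 (-0.13), Ctbp2 (-0.03), Scrt2 (-0.17), Cox8a (-0.18) and the second Phf21a probe (-0.18). With quantile normalization Otub1 was at 0.04 and Spindoc at 0.01, and with normexp Scrt1 was at -0.05. In row 1 alone Insm2 was at 0.05, Scrt1 at -1.09 and Scrt2 at -0.12. With array weights Hdac2 was at 0.01, Kdm1b at 0.05, Scrt1 at -0.23 and Scrt2 at -0.04. With arrays left out, Hdac2 ran from -0.20 to 0.06, Kdm1b from -0.19 to 0.02, Ctbp1 from -0.18 to 0.09, Scrt1 from -0.42 to 1.52, Scrt2 from -0.08 to 0.15, Otub1 from -0.15 to 0.06, Mark2 from -0.16 to 0.01 and the second Phf21a probe from -0.03 to 0.18. Its difference from the other Phf21a probes ran from -0.19 to 0.15 and that of the third from -0.01 to 0.40. The causes were not tested.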

Other observations

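Rcor2 was set beside the genes most like it, by the measure and among the genes used for Gfi1b. This choice was made after its values were seen. Over the 6 arrays the closest were Rcn3, a calcium-binding protein of the endoplasmic reticulum (root-mean-square difference 0.0671 on the log2 scale), the histone variant gene Macroh2a3 (0.112), the testis cytochrome gene Cyct (0.112), the cobalamin carrier gene Tcn2 (0.126) and the transcription factor gene Grhl1 (0.136). Their changes ran from 2.11 for Tcn2 to 2.31 for Rcn3, against 2.22 for Rcor2. The choice by likeness fixes such similar changes, so they are a description only. They lie on chromosomes 7, 15, 2, 11 and 12, and Rcor2 on chromosome 19.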
